A study of Mus musculus with 18 samples.

Results

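The BCL-2 family genes described here are 10 genes chosen by symbol, out of 19780 genes in the LSK table and 18428 in the CMP table, and all 10 were found in both. LSK cells lack lineage markers and carry Sca-1 and c-Kit, a gate that enriches mouse marrow for stem cells and their earliest descendants, and common myeloid progenitors (CMPs) lie downstream of it on the way to granulocytes, monocytes, platelets and red cells. The 18 samples came from sorted bone marrow cells of female mice, with 3 samples in each of 6 groups. LSK were taken from NZBW/F1 mice, which develop lupus spontaneously, before disease (F1-P, 12 weeks of age) and with proteinuria (F1-L, 28 to 36 weeks), and from C57BL/6 mice of the corresponding ages (B6-Y and B6-O). CMPs were taken from F1-P and F1-L mice only. Age and disease thus changed together from F1-P to F1-L, and NZBW/F1 and C57BL/6 mice differed in strain background, so that strain and disease cannot be told apart between F1-L and B6-O. The study gives several mice per replicate for CMPs, so that these are pools, while for LSK no source used here says what a replicate is. The p-values measure the spread between these samples, which may be technical.

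BCL-2 family proteins decide whether the outer membrane of the mitochondrion is breached, the step that releases cytochrome c and starts the caspases. Anti-apoptotic members (BCL-2, BCL-XL, MCL-1 and A1) hold the effectors BAK and BAX in check, and BH3-only members such as BIM, BID, BAD, BMF and BIK bind and neutralise them or engage the effectors directly. Blood stem and progenitor cells are known to depend on MCL-1, and BIM promotes the death of blood cells when growth factors run short. Of the genes described, Bcl2, Bcl2l1 (BCL-XL), Mcl1 and Bcl2a1b (A1) encode the 4 anti-apoptotic proteins. The 6 pro-apoptotic ones are Bak1, an effector, and the BH3-only genes Bcl2l11 (BIM), Bid, Bad, Bmf and Bik. Messenger RNA was measured, while many of these proteins are also regulated by phosphorylation, cleavage or decay.

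Promoters of Bcl2l11, Bmf and Bcl2l1 are shown because the results below turn on these genes, the first between younger and older mice and the others between NZBW/F1 and C57BL/6. RefSeq (build GRCm38.p6) gave 15 start sites for 9 of the 10 genes, each with 250 bases before and 50 bases after the start. Each line holds the 250 bases before 1 start site, 5′ to 3′ on the strand of the gene, with a match to a FOXO site in capitals.
Bcl2l11, chr2:128125788-128126037, plus strand: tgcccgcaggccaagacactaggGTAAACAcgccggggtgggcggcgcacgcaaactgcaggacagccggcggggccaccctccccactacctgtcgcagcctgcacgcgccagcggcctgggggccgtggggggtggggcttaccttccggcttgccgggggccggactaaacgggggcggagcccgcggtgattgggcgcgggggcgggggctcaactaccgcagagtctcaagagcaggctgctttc
Bmf, chr2:118549687-118549936, minus strand: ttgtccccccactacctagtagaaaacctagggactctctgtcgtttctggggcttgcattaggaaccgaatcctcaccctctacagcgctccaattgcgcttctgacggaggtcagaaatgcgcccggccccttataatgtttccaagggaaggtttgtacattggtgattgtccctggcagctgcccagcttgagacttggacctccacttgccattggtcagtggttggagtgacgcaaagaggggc
Bcl2l1, chr2:152831729-152831978, minus strand: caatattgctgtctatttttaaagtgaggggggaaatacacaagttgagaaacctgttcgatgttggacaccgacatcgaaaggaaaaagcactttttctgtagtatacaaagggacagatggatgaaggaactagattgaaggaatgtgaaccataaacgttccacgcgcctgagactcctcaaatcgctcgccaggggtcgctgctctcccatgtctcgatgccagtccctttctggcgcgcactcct
The windows of 300 bases were searched on both strands for the FOXO motif TGTTTAC and the STAT motif TTCNNNGAA, since FOXO factors act on Bcl2l11 and STAT5 on Bcl2l1. One window of the 15, that of the first Bcl2l11 start site, held the FOXO letters, 227 bases before the start and in reverse orientation, and 3.65% of all 32851 promoters held them. None of the 15 held the STAT letters, which were in 8.3% of all promoters. Absence of the letters from these windows says nothing about either factor.

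Values are scaled CPM (counts relative to library size), in which the authors divided counts by sequencing depth and a normalisation factor. The 2 tables were normalised separately, so that levels in LSK and CMPs are given side by side without a test. Samples held 23772252 to 28493747 reads in LSK and 20001328 to 24761060 in CMPs. limma was applied to log2(CPM + 1) of the genes that reached 1 CPM in 3 or more samples of the groups compared. A gene was counted as changed where its Benjamini-Hochberg adjusted p was 0.05 or lower and it differed by more than 1.5-fold. Log2 differences below carry the added 1 and so understate the change of genes near 1 CPM. Kit was at 257 to 657 CPM in LSK and 416.5 to 668 in CMPs. Ly6a, which encodes Sca-1, was at 35.5 to 113 in C57BL/6 LSK, 293 to 879 in NZBW/F1 LSK and 1.14 to 6.70 in CMPs, whose gate the study's methods give as positive for Sca-1. In bulk samples, fewer cells of a type and less RNA per cell cannot be told apart. Library B6-O replicate 3 stood apart within its group, with Kit at 296.0 CPM and mature neutrophil markers summing to 10720 CPM, against 1736 and 832 in the other two.

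Mcl1 was the most abundant of the genes in every group, whether per gene or per kilobase of exon. Per kilobase, its mean level was 164 ± 49.9 CPM in B6-O, 179.8 ± 14.2 in B6-Y, 207.9 ± 27.7 in F1-L and 266 ± 57.6 in F1-P LSK (SD, n = 3), and 92.4 ± 10.4 and 138 ± 33.9 in F1-L and F1-P CMPs. Bak1 and Bcl2 followed in most LSK groups, with group means of 15.8 to 24.0 and 15.1 to 16.4 CPM per kilobase, and Bak1 and Bid in CMPs, at 29.3 to 30.2 and 27.4 to 29.8. Neighbours in that order, such as Bak1 and Bid in CMPs or Bcl2 and Bid in LSK, overlapped in their spread. Bmf, Bik and Bcl2a1b were the 3 lowest in every group, with Bcl2a1b at 1 to 51 reads per library and Bik at 5 to 54.

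**Figure D1:**
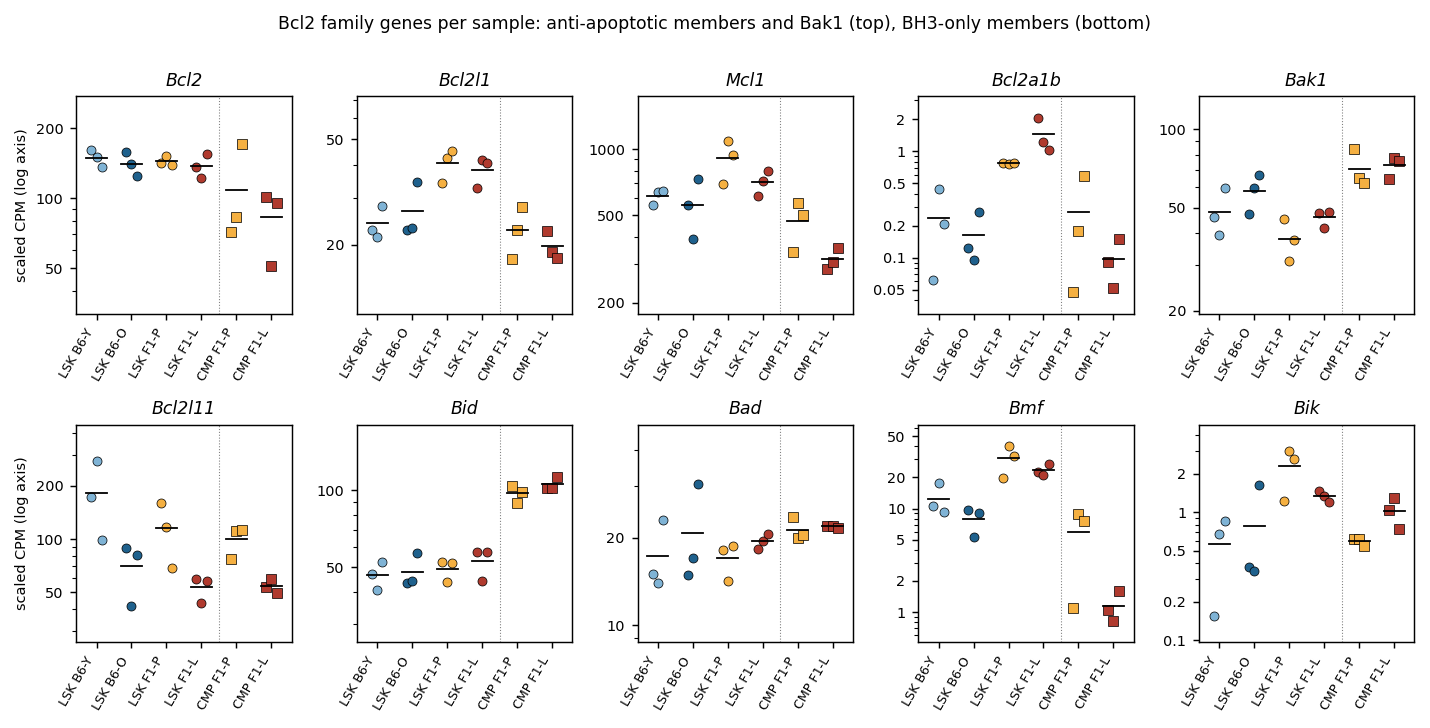
Scaled CPM of each gene on a log axis, 1 point per sample and a bar at the mean of 3 samples, with LSK groups (circles) left of the dotted line and CMP groups (squares) right of it. Bcl2 lies between 122.7 and 161.8 CPM in all 12 LSK samples, while Bcl2l11 and Bmf spread from 41.8 to 277.8 and from 5.27 to 40.4 in LSK.

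Among the anti-apoptotic genes, Bcl2 varied little in LSK and more widely in CMPs. LSK samples held 157.5, 140.8 and 124.8 CPM in B6-O, 161.8, 150.9 and 136.4 in B6-Y, 136.1, 122.7 and 155.8 in F1-L, and 142.4, 152.1 and 139.6 in F1-P. All 4 LSK groups overlapped. In CMPs the values were 101.8, 51.3 and 95.5 in F1-L and 71.6, 83.4 and 171.4 in F1-P, so that single samples differed more than the groups did. The log2 difference of Bcl2 had a 95% interval of -0.34 to 0.20 between LSK F1-L and F1-P, -0.38 to 0.32 between F1-L and B6-O, and -0.33 to 0.23 between F1-P and B6-Y. In CMPs the interval was wider, at -1.30 to 0.62.

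Bcl2l1, whose product BCL-XL protects erythroid cells and platelets in particular, was higher in LSK of NZBW/F1 mice before disease. Samples held 34.3, 42.7 and 45.3 CPM in F1-P and 22.7, 21.4 and 28.1 in B6-Y, and 32.9, 41.6 and 40.8 in F1-L and 22.7, 23.2 and 34.5 in B6-O. F1-P lay wholly above B6-Y, while 1 B6-O sample, the replicate 3 that stood apart, exceeded the lowest F1-L sample. Bcl2l1 rose by 0.74 ± 0.17 (SE) in F1-P against B6-Y (limma, adjusted p = 0.0218), a ratio of mean CPM of 1.69. The difference from B6-O was 0.52 (95% interval 0.05 to 1.00, adjusted p = 0.147) in F1-L, and 0.71 (adjusted p = 0.018) without B6-O replicate 3. The Bcl2l1 call of F1-P was lost without B6-Y replicate 1 or 2 or F1-P replicate 2 or 3, with adjusted p of 0.0607 to 0.107. Between F1-L and F1-P it differed by -0.08 (95% interval -0.43 to 0.27), and CMPs ranged from 17.6 to 27.7 CPM.

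Mcl1 gave 698, 1088 and 942 CPM in F1-P and 559, 642 and 643 in B6-Y, with no overlap between the groups. The log2 difference was 0.54 (95% interval 0.05 to 1.03, limma adjusted p = 0.121), so it was not counted as changed, although DESeq2 counted it (adjusted p = 0.0213) as did limma without F1-P replicate 1 (adjusted p = 0.0438). F1-L samples held 612, 720.3 and 800.2 CPM and B6-O samples 559, 389 and 729.9, which overlapped. In CMPs Mcl1 was at 286, 306 and 355 CPM in F1-L and 342, 567 and 504 in F1-P. Only the lowest F1-P sample lay within the F1-L range.

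Bcl2a1b was nearly absent from C57BL/6 LSK. It held 4, 3 and 8 reads in B6-O and 2, 13 and 6 in B6-Y, 51, 31 and 23 in F1-L, and 19, 13 and 16 in F1-P. In CPM these were 0.0947 to 0.267, 0.0620 to 0.439, 1.03 to 2.04 and 0.759 to 0.783, and CMPs held 0.0480 to 0.588. F1-L samples all lay above F1-P and B6-O samples. Bcl2a1b rose in F1-L against B6-O by 1.05 ± 0.20 (SE, limma adjusted p = 0.0164), but it passed the filter on low values only through F1-L, the group where it is high, and this call is not counted as support. The call was lost without B6-O replicate 1 or 2 (adjusted p = 0.0765 and 0.0744). The difference from F1-P was 0.44 (95% interval -0.01 to 0.88, adjusted p = 0.400). Bcl2a1b is one of a group of near-identical copies, 99.14% identical to Bcl2a1d and 98.16% to Bcl2a1a, and 43.47% of its windows of 75 bases occur in another copy. Of its exonic length, 49.08% also overlaps Gm29094 on the same strand, so its reads are uncertain. Mature neutrophil markers summed to 12370, 4905 and 1983 CPM in F1-L replicates 1, 2 and 3, in the same order as Bcl2a1b, and to 301 to 1281 in F1-P. Within B6-O and B6-Y the sample highest in these markers, replicate 3 at 10720 and replicate 2 at 5441 CPM, was also the one highest in Bcl2a1b. In F1-P the orders differed, and B6-O replicate 3 held less Bcl2a1b, 0.267 CPM, than any F1-P sample. The sort excluded cells positive for the myeloid markers CD11b and Gr-1 and for the B cell marker B220. The part of neutrophil markers in the Bcl2a1b values was not tested. Genes that followed Bcl2a1b most closely over the 12 LSK samples were Col5a1 (Pearson r = 0.966), Dse (0.961) and Dnaja4 (0.955).

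Among the pro-apoptotic genes, Bmf was counted as higher in both comparisons of NZBW/F1 with C57BL/6. Its product moves from the cytoskeleton to mitochondria when cells detach or are stressed. LSK samples held 22.7, 21.1 and 26.8 CPM in F1-L against 9.68, 5.27 and 9.06 in B6-O, and 19.9, 40.4 and 32.5 in F1-P against 10.5, 17.5 and 9.22 in B6-Y. Both NZBW/F1 groups lay wholly above the C57BL/6 group of the same age. Bmf rose by 1.48 ± 0.25 (SE) in F1-L against B6-O (limma adjusted p = 0.00997), with a ratio of mean CPM of 2.94, and by 1.24 ± 0.31 in F1-P against B6-Y (adjusted p = 0.0305), with a ratio of 2.49. It was counted in each of the 12 other settings that kept all samples, in both comparisons. In F1-L the Bmf call was lost without F1-L replicate 1 or 3 (adjusted p = 0.0538 and 0.0668). In F1-P it was lost without B6-Y replicate 1 or 3 or F1-P replicate 2 or 3 (adjusted p = 0.0914 to 0.126), while its log2 difference stayed between 1.03 and 1.52.

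Markers of plasma cells were higher in NZBW/F1 than in C57BL/6 LSK, the direction in which Bmf, Bcl2l1 and Bik differed. The summed level of 8 plasma cell markers, 7 or 8 of them above 1 CPM in every sample of a group, was 9742 to 13040 CPM in F1-L and 14630 to 37900 in F1-P, against 253 to 2529 in B6-O and 788 to 1987 in B6-Y. None of the 8 was at 0 in a group. Of the 8, 7 were called higher in F1-L against B6-O and 8 in F1-P against B6-Y. In F1-L against F1-P all 8 were lower and 0 were called. Bcl2l1, Bmf and Bik differed there by -0.08, -0.33 and -0.45, also without a call. F1-P replicates 2 and 3, the samples highest in Bmf, were also the highest in these markers, at 37900 and 33990 CPM. F1-P replicate 1, at 14630 CPM, exceeded every F1-L sample in these markers. Its Bmf, at 19.9 CPM, was below that of every F1-L sample (21.1 to 26.8). Immunoglobulin genes took 16.8% to 36.6% of the reads of NZBW/F1 LSK against 0.301% to 4.76% in C57BL/6. In B6-O replicate 3 was highest in these markers, at 2529 CPM against 396 and 253, and in Bcl2l1 and Bik. Its Bmf, at 9.06 CPM, was below the 9.68 of replicate 1. In B6-Y replicate 2 was highest in the markers and in Bmf, while replicate 3, at 1886 CPM of the markers, was lowest in Bmf (9.22 CPM). Of 8 T and NK cell markers, 4 and 6 were called higher in the respective comparisons, with summed levels of 172.5 CPM or more in every NZBW/F1 sample. Monocyte markers summed to 448 to 860 CPM in F1-L against 77.7 to 275 in B6-O and to 426 to 868 in F1-P against 187 to 264 in B6-Y, with 3 and 1 of 8 called higher. In F1-P against B6-Y the list was split, with 3 of 8 higher and 5 lower. At an unadjusted p below 0.05 (limma), 3 were higher and 3 lower, so the higher sum there does not describe the list. Stem and progenitor markers summed to 1557 to 1932 CPM in F1-L against 2052 to 2946 in B6-O and to 1835 to 2307 in F1-P against 2203 to 2757 in B6-Y, with 3 and 4 of 10 called lower and 1 called higher in each. Erythroid markers summed highest in F1-P replicate 3 (1448 CPM) and B6-O replicate 3 (330.6), the samples of their groups highest in Bcl2l1. In F1-L and B6-Y they summed highest in replicates 1 and 2 (277.2 and 145.7 CPM), the samples lowest in Bcl2l1. Of 6 erythroid markers, 1 was called higher in F1-L against B6-O and 0 in F1-P against B6-Y. The part of all these markers in the Bmf, Bcl2l1 and Bik results was not tested. The 3 genes whose log2(CPM + 1) followed Bmf most closely over the 12 LSK samples were Cacna1e (Pearson r = 0.988), Filip1l (0.988) and Cpeb2 (0.983), a likeness measured in samples that differ in plasma cell markers.

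**Figure D2:**
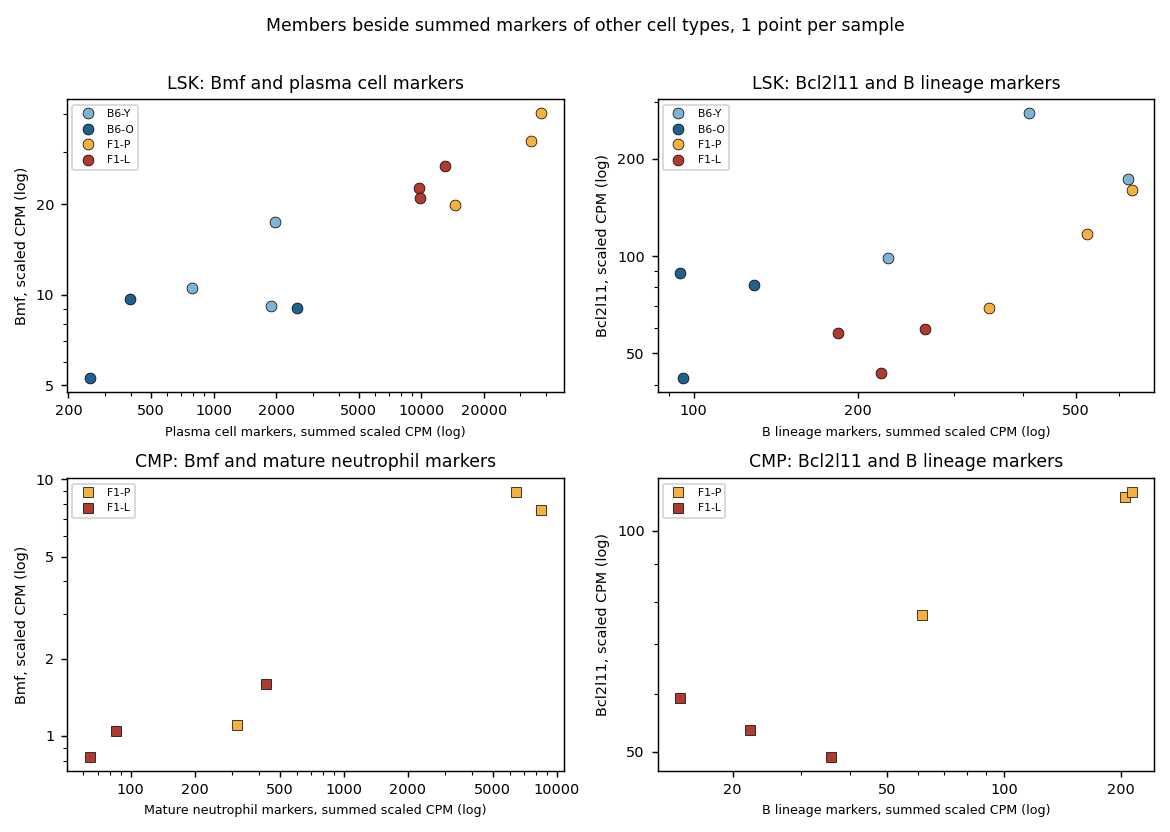
Bmf or Bcl2l11 (scaled CPM, log axis) against the summed scaled CPM of markers of another cell type (log axis), 1 point per sample, with LSK in the top row and CMPs below. F1-P samples 2 and 3 hold the highest Bmf and plasma cell marker levels in LSK, and CMP F1-P samples 2 and 3 the highest Bmf, Bcl2l11, neutrophil and B lineage levels.

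Bcl2l11, whose product BIM binds all the anti-apoptotic proteins, was lower in older than in younger samples. LSK samples held 59.6, 43.3 and 57.6 CPM in F1-L against 160.3, 117.0 and 68.9 in F1-P, and 88.7, 41.8 and 81.1 in B6-O against 173.5, 277.8 and 98.4 in B6-Y. Within each strain every older sample lay below every younger one. CMP samples gave 53.6, 59.1 and 49.2 CPM in F1-L and 76.8, 111.2 and 113 in F1-P, again without overlap. limma did not count it in any comparison with all samples, and did so in CMPs without F1-P replicate 1 (adjusted p = 0.0114). The log2 differences of Bcl2l11 were -1.03 (95% interval -1.73 to -0.32, adjusted p = 0.236) in LSK F1-L against F1-P, -1.31 (-2.29 to -0.34, adjusted p = 0.542) in B6-O against B6-Y, and -0.87 (-1.28 to -0.46, adjusted p = 0.352) in CMPs. Count models gave other calls. edgeR's likelihood ratio test and DESeq2 counted Bcl2l11 as lower in LSK F1-L against F1-P (adjusted p = 0.0177 and 0.00977) and in CMPs (0.00209 and 0.000828), and DESeq2 alone in B6-O against B6-Y (0.0485). edgeR's quasi-likelihood test gave adjusted p of 0.197, 0.307 and 0.539 for these. The difference between strains was -0.33 (95% interval -1.03 to 0.36) in F1-L against B6-O and -0.62 (-1.57 to 0.33) in F1-P against B6-Y.

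B lineage markers, taken as a sum, were lower in older than in younger samples, as was Bcl2l11. The sum of 10 of them was 347 to 633 CPM in F1-P and 183 to 265 in F1-L, 227 to 623 in B6-Y and 94.4 to 129 in B6-O, and in CMPs 61.4 to 213 in F1-P and 14.7 to 35.8 in F1-L. None of the 10 was at 0 in a group. In LSK F1-L against F1-P 6 of 10 were lower at an unadjusted p below 0.05 and 1 higher, and 7 of 10 were lower in B6-O against B6-Y. In CMPs 9 of 10 were lower. Within F1-P the sums of 633, 523 and 347 CPM ran in the same order as Bcl2l11, and in B6-Y the lowest sum was in the sample lowest in Bcl2l11. The highest sum of B6-Y was in replicate 1 and the highest Bcl2l11 in replicate 2. In B6-O replicates 1 and 2 had nearly equal sums, 94.4 and 95.8 CPM, and the highest and lowest Bcl2l11 of their group. In F1-L the sums of 265, 220 and 183 CPM did not follow Bcl2l11, at 59.6, 43.3 and 57.6. Between strains, all 10 markers were higher in F1-L against B6-O (median log2 difference 0.72), where Bcl2l11 was at -0.33. In F1-P against B6-Y 4 were higher and 6 lower, and Bcl2l11 was at -0.62. The part of these markers in the Bcl2l11 result was not tested. Genes that followed Bcl2l11 most closely over the 12 LSK samples were Rel (Pearson r = 0.965), Fbxo11 (0.948) and Atg16l1 (0.941).

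Bik, which encodes a BH3-only protein of the endoplasmic reticulum, was low, at 0.347 to 1.64 CPM in B6-O, 0.155 to 0.860 in B6-Y, 1.21 to 1.48 in F1-L and 1.24 to 3.03 in F1-P. It rose in F1-P against B6-Y by 1.06 ± 0.28 (SE, limma adjusted p = 0.0374), with a ratio of mean CPM of 4.08. The call was lost with a pseudocount of 0.1 and with edgeR's quasi-likelihood test (adjusted p = 0.0539 in the latter). Bik passed the low value filter only through F1-P, which makes the call no support, and the call was lost without any of the 3 B6-Y samples (adjusted p of 0.0567 to 0.134) and could not be fitted without an F1-P sample. Genes that followed Bik over the 12 LSK samples were 1110008P14Rik (Pearson r = 0.969), Cope (0.961) and Cd52 (0.961). Bid, whose product is cleaved by caspase-8 and links death receptors to mitochondria, was at 40.8 to 57.5 CPM in LSK and 89.2 to 113 in CMPs. Bad was at 14.0 to 30.6 and 19.9 to 23.5, and Bak1 at 31.2 to 66.8 and 62.4 to 83.8. None of Bid, Bad and Bak1 was called in any comparison. Their 95% intervals lay within -0.42 to 0.55 for Bid, -0.82 to 0.94 for Bad and -0.79 to 0.74 for Bak1 over all 6 comparisons. Without strand, reads of Bid, Bad and Bak1 cannot be told apart from those of Bcl2l13, Gpr137 and Ggnbp1, which overlap 17.69%, 20.48% and 18.16% of their exonic length on the other strand.

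**Figure D3:**
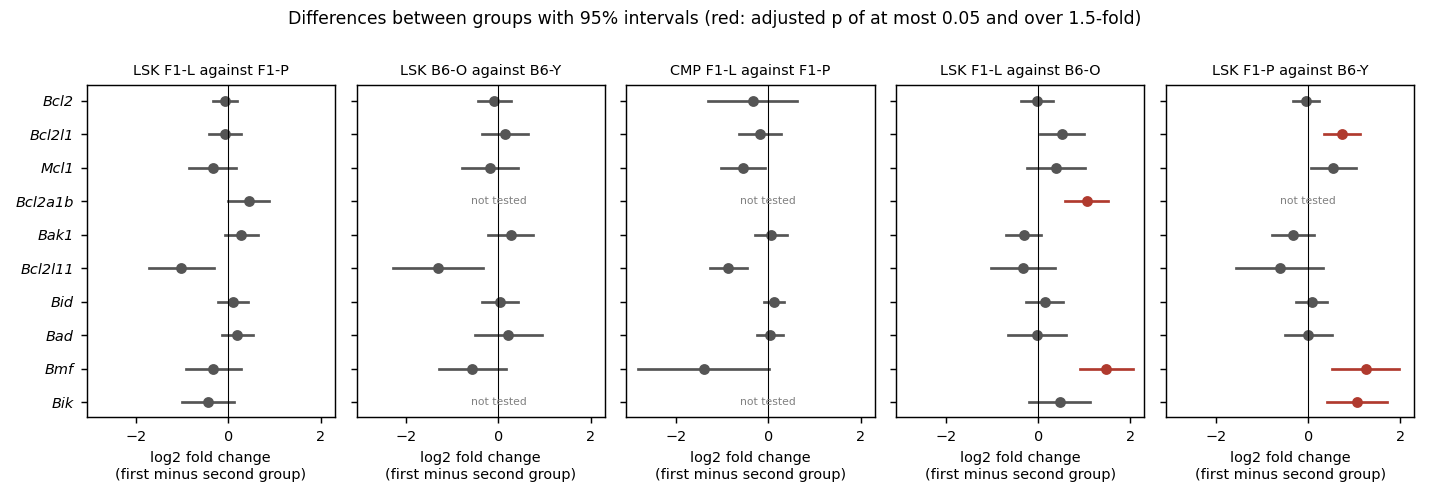
Log2 difference of each gene between the first and the second group of 5 comparisons, with 95% intervals from limma and calls in red. Bmf is called in both comparisons of NZBW/F1 with C57BL/6, and the interval of Bcl2l11 lies below 0 in all 3 comparisons of older with younger mice without passing the adjusted threshold.

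To place these values, the counts over the 10 genes were set beside those over all genes. In LSK F1-L against F1-P, 0 of 10 were counted in limma, beside 0.0279% of 14332 genes. DESeq2 and the likelihood ratio test of edgeR each counted 1 (Bcl2l11), beside 734 and 657 of the 14332 genes. The quasi-likelihood test of edgeR counted 0, beside 3 of all genes. An unadjusted p below 0.05 was reached by 1 of 10 beside 12.8% of all genes. Groups did not overlap for 1 gene that was higher (Bcl2a1b, which also here passed the filter only through F1-L) and 1 that was lower (Bcl2l11), beside 10.4% and 7.29% of all genes. In F1-L against B6-O, 2 of 10 were counted, both higher, beside 11.6% of 14381 genes. One of them is Bcl2a1b, which passed the filter only through F1-L, so that Bmf alone remains of this count. An unadjusted p below 0.05 was reached by 3 of 10 beside 27.5%, and 2 did not overlap in the higher direction beside 17.5%. Bcl2a1b is again in both counts, so that Bcl2l1 and Bmf remain of the former and Bmf of the latter.

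In F1-P against B6-Y, 3 of the 9 genes tested were counted, all higher, beside 16.2% of 14380 genes. One of them is Bik, which passed the filter only through F1-P, so that Bcl2l1 and Bmf remain of this count. An unadjusted p below 0.05 was reached by 4 beside 31.3%, and 4 did not overlap in the higher direction beside 17.4%. Bik is again in both counts, so that Bcl2l1, Mcl1 and Bmf remain of each. In B6-O against B6-Y, 0 of the 8 tested were counted in limma beside 0% of 14005 genes. DESeq2 counted 1 (Bcl2l11) beside 207 of the 14005. An unadjusted p below 0.05 (limma) was reached by 1 beside 6.62%, and 1 (Bcl2l11) lay wholly lower beside 5.57%. In CMPs, 0 of the 8 tested were counted in limma beside 0.00774% of 12926 genes. The likelihood ratio test of edgeR and DESeq2 each counted 1 (Bcl2l11), beside 308 and 351 of the 12926. An unadjusted p below 0.05 (limma) was reached by 2 (Mcl1 and Bcl2l11) beside 9.8%, and 1 (Bcl2l11) lay wholly lower beside 6.57%. These shares describe the list and are near the background in several comparisons, so nothing is called particular to it. Each LSK group enters 2 of these comparisons, which are not independent of each other.

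Whether the change with age differed between NZBW/F1 and C57BL/6 LSK was tested in all 12 samples. None of the 10 genes was counted in limma (0% of 15084 genes) and none had an unadjusted p below 0.05 (3.92% of all genes), and edgeR and DESeq2 also counted none of the 10. The largest estimates were 0.52 for Bcl2a1b (95% interval -0.03 to 1.06) and -0.59 for Bik (-1.52 to 0.33), and that of Bcl2l11 was 0.29 (-0.95 to 1.53).

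One F1-P library of CMPs lay close to those of F1-L. Bmf held 1.10, 8.96 and 7.60 CPM in F1-P replicates 1, 2 and 3, against 1.05, 0.826 and 1.59 in F1-L, so that replicate 1 lay within the F1-L range. Mature neutrophil markers summed to 315, 6453 and 8442 CPM in the same F1-P samples and to 64.2 to 431 in F1-L, with all 11 lower in F1-L at an unadjusted p below 0.05 and none at 0. The log2 difference of Bmf was -1.41 (95% interval -2.84 to 0.02, adjusted p = 0.517). Without F1-P replicate 1, limma counted Bmf (-2.12, adjusted p = 0.0114), Bcl2l11 (-1.05, adjusted p = 0.0114) and Mcl1 (-0.76, adjusted p = 0.0326) as lower in F1-L. Over all genes that fit counted 434 of 12774, 396 of them lower, against 1 of 12926 with all samples. The part of these markers in the CMP results was not tested.

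The balance of the family was described per sample as the mean log2(CPM + 1) of the 4 anti-apoptotic genes minus that of the 6 pro-apoptotic ones. It was not tested, being a score over chosen genes. The balance was 1.25 ± 0.09 in F1-L, 1.05 ± 0.12 in F1-P, 1.00 ± 0.15 in B6-O and 0.85 ± 0.06 in B6-Y LSK (SD, n = 3), and 0.56 ± 0.20 in F1-L and 0.59 ± 0.25 in F1-P CMPs. All F1-L LSK samples lay above all F1-P and B6-O samples, and all F1-P above all B6-Y samples. Without Bcl2a1b the difference of F1-L from F1-P was 0.04 in place of 0.19, and that from B6-O 0.06 in place of 0.25, and the groups overlapped in each LSK comparison. On summed CPM, of which Mcl1 made up 69.7% to 84.8% on the anti-apoptotic side in every sample, F1-L exceeded F1-P by 0.07 with overlap and B6-O by 0.36 without.

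**Figure D4:**
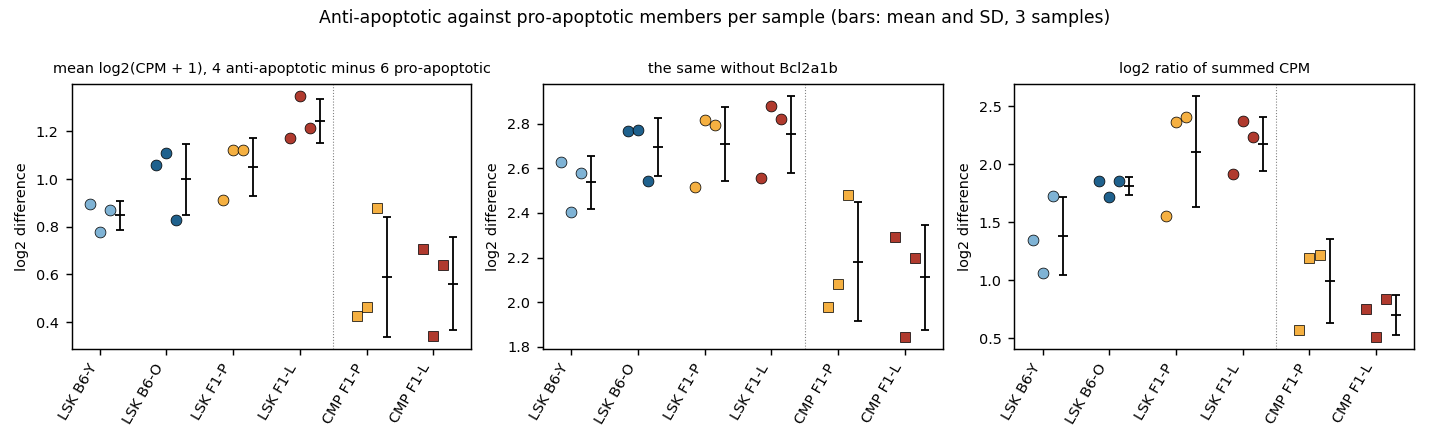
Difference between the anti-apoptotic and pro-apoptotic genes per sample (log2), with the mean and SD of 3 samples beside the points, for all genes, without Bcl2a1b and as a ratio of summed CPM. F1-L LSK lie above the other LSK samples only in the first panel, and CMPs lie lower, although the highest CMP sample exceeds the lowest B6-Y sample in every panel.

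Differences between a pair of genes in the same sample, taken here without the added 1, do not depend on how that sample was scaled. Mcl1 exceeded Bcl2l11 by 3.74 ± 0.35 log2 units in LSK of F1-L mice, 3.04 ± 0.84 in F1-P, 3.01 ± 0.31 in B6-O and 1.87 ± 0.77 in B6-Y, and by 2.55 ± 0.27 and 2.22 ± 0.11 in F1-L and F1-P CMPs (SD, n = 3). F1-L and F1-P overlapped in LSK. Bid lay below Bcl2 by 1.14 log2 units or more in every LSK sample, and in CMPs the difference of Bid from Bcl2 ran from -0.80 to 1.00.

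Other genes of the apoptotic pathway were taken from whole lists of each step of the pathway. Of 16 further BCL-2 family genes, 10 or 11 were tested and 0 were counted in any comparison. The BH3-only gene Pmaip1 (NOXA), which binds MCL-1, was at 13.8, 21.7 and 42.7 CPM in F1-L LSK, 22.6, 58.2 and 33.1 in F1-P LSK, 9.77, 3.32 and 13.9 in B6-O and 16.9, 19.6 and 12.3 in B6-Y. F1-P lay wholly above B6-Y (1.09, limma adjusted p = 0.0585), and in CMPs F1-L lay wholly below F1-P (-2.30, adjusted p = 0.371). Bbc3 (PUMA) also lay wholly lower in F1-L CMPs, by 1.30 (adjusted p = 0.365), with F1-P replicate 1 the lowest of its group for both.

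Of 7 death receptor genes, Fasl, the ligand of FAS, rose in both comparisons of NZBW/F1 with C57BL/6 LSK. It was at 10.2, 6.12 and 6.38 CPM in F1-L against 0.653, 0.442 and 1.24 in B6-O (2.26, limma adjusted p = 0.00246) and at 5.57, 8.29 and 5.98 in F1-P against 0.744, 2.09 and 0.585 in B6-Y (1.88, adjusted p = 0.0039). Fasl passed the low value filter only through the NZBW/F1 groups, where it is high, so these calls are not counted as support. Fasl is made by T and NK cells, whose markers rose in the same comparisons. The part of these markers in the Fasl values was not tested. Tnfrsf1a, a TNF receptor, fell in F1-P against B6-Y (-0.62, adjusted p = 0.0328). Of 12 caspase and apoptosome genes, Endog alone was counted, in F1-P against B6-Y (0.67, adjusted p = 0.0486).

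Of 11 genes of p53 and its targets, Trp53inp1, a stress-induced p53 target, rose most. It was at 274, 287 and 327 CPM in F1-L and 251, 827 and 499 in F1-P, against 85.8, 82.4 and 59.6 in B6-O and 96.5, 124 and 83.9 in B6-Y. The log2 differences were 1.96 (limma adjusted p = 0.000763) and 2.22 (adjusted p = 0.0072), with F1-P replicates 2 and 3 highest as for Bmf. Zmat3 was counted as higher in F1-P against B6-Y (0.98, limma adjusted p = 0.0218). The list as a whole was split, with 6 higher and 5 lower in F1-L against B6-O (median log2 difference 0.009). In F1-P against B6-Y 7 were higher and 3 lower (median 0.057). The part of plasma cell markers in the values of these genes was not tested. Among 10 upstream regulators, Foxo1 and Fbxw7, the latter part of a ubiquitin ligase for MCL-1, were counted in F1-L against B6-O (1.07 and 1.00, adjusted p = 0.00287 and 0.00217), and Fbxw7 in F1-P against B6-Y (1.36, adjusted p = 0.00811). Foxo1, whose product acts on Bcl2l11, lay wholly lower in the older mice of each strain, by 0.75 in NZBW/F1 and 0.95 in C57BL/6 LSK (limma adjusted p = 0.172 and 0.358). Of all genes, 7.29% and 5.57% lay wholly lower in these comparisons. In F1-L against B6-O, where Foxo1 was counted as higher, Bcl2l11 differed by -0.33 (95% interval -1.03 to 0.36). The part of Foxo1 in the Bcl2l11 values was not tested. Of 6 caspase inhibitor genes, 0 were counted in any comparison.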

How the data were processed

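RNA of 18 samples was sequenced, taken from sorted bone marrow LSK and CMPs, grouped by their labels. The authors made unstranded TruSeq libraries, aligned single-end reads to mm10 with STAR 2.6 (per the labels), counted them with HTSeq and used edgeR. The deposited values are a scaled CPM signal whose columns sum to 832403 to 1387186 in LSK, so the authors' values are not plain CPM, which the design had assumed. Whole reads were recovered for 100.0% of values within 0.1 read and used only in count tests. GENCODE M21 gave positions and symbols for 19770 LSK and 18421 CMP genes, and where IDs shared a symbol it was kept for the ID with most reads. RefSeq promoters were searched for motifs.

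limma 3.58.1 in R 4.3.3 was run on log2(CPM + 1) of the 2 groups compared (all 12 LSK samples for the strain by age difference). Alternatives were edgeR 4.0.16, DESeq2 1.42.0, a replicate block, pseudocounts of 0.1 and 0.5, no filter or mean CPM of at least 5, median-of-ratios scaling, scaling without immunoglobulin genes, all 12 LSK samples in 1 fit, no fold change minimum, and each sample left out. The tests were tested on simulated data. Depth is given with the results and limits the lowest genes. No sample pair differed by as little as sampling noise. The members and lists were chosen with earlier results of these data known. Named genes are all 10 members, for other lists at most 5 per comparison (those counted, then the largest differences with an unadjusted p below 0.05), and for members whose LSK group means spanned 1 log2 unit the 3 genes with the highest correlation.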

Additional observations from a re-analysis of the deposited data

How the results depend on the processing

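Of 1012 fold changes of single members recomputed under the alternatives, 983 stayed on their side of the threshold, 17 lost the call and 12 gained one. In 0 the sign reversed with an unadjusted p below 0.05 in either fit. Most of the 983 were of members not called in the main fit, while all 17 losses fell on main calls. With 1 sample left out, Bmf stayed called in 4 of 6 fits of F1-L against B6-O and 2 of 6 of F1-P against B6-Y. Bcl2l1 stayed in 2 of 6, Bcl2a1b in 1 of 3 and Bik in 0 of 3. The sign changed in 55, all with an unadjusted p of 0.05 or more in both fits. The number of members counted went from 0 to 1 by edgeR's likelihood ratio test and by DESeq2 in LSK F1-L against F1-P and in CMPs, and from 0 to 1 by DESeq2 in B6-O against B6-Y. It fell from 2 to 1 in F1-L against B6-O with a mean CPM of at least 5, a filter that removes Bcl2a1b. In F1-P against B6-Y it fell from 3 to 2 with a pseudocount of 0.1, with a mean CPM of at least 5 and with edgeR's quasi-likelihood test, Bik being lost in each, and rose to 4 with DESeq2, which added Mcl1. With 1 sample left out, 0 to 4 members were counted in F1-L against B6-O, 0 to 3 in F1-P against B6-Y, 0 to 3 in CMPs and 0 in the other comparisons. Over all genes the fits of the first 3 counted 448 to 2285, 927 to 2229 and 0 to 434. The highest member counts came from the fits with 2285, 2229 and 434 genes. The balance of F1-L against B6-O was 0.518 with a pseudocount of 0.1 and 0.0571 without Bcl2a1b, and that of F1-L against F1-P 0.0431 without Bcl2a1b and 0.0653 on summed CPM. Summed CPM also gave 0.73 for F1-P against B6-Y, 0.431 for B6-O against B6-Y and -0.293 in CMPs, and the cause of these shifts was not tested.

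Over all genes, the count in LSK F1-L against F1-P was 4 in limma, 657 by edgeR's likelihood ratio test, 734 by DESeq2 and 26 with all 12 LSK samples in 1 fit. It was 0, 114, 207 and 13 in B6-O against B6-Y, and 1, 308 and 351 in CMPs by the first 3 of these. In the strain by age difference it was 0 in limma, 10 by the likelihood ratio test and 29 by DESeq2. A mean CPM of at least 5 gave 978 in place of 1667 in F1-L against B6-O, and 0 in place of 1 in CMPs. Same-numbered samples deviated together in some pairs and not in others (r from -0.454 to 0.622), so whether the numbers pair the samples cannot be told. The same number was the best match for replicates 1 and 2 in F1-P against B6-Y (r = 0.33 and 0.32). It was so for replicates 1 and 3 in B6-O against B6-Y (0.47 and 0.32) and replicate 3 in CMPs (0.62). Replicate 3 in F1-L against B6-O also matched its own number best, but only at r = 0.05. A replicate block counted 0, 2, 3, 0, 0 and 0 members in the 6 comparisons, the same numbers as without it, and 0 in place of 4, 1380 in place of 1667 and 2787 in place of 2331 genes in the first 3. With the block, genes with an unadjusted p below 0.05 (limma) went from 927 to 1678 in B6-O against B6-Y and from 1267 to 914 in CMPs. Depth limits Bcl2a1b and Bik, at 1 to 54 reads per library.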
